A study of Mus musculus with 2 samples.

Results

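The Snrpn to Ipw region of mouse chromosome 7 holds a chain of transcripts that are read in one direction, from the minus strand, and that carry clusters of small nucleolar RNAs (snoRNAs) in their introns. Entries of the study's catalog of imprinted genes were taken where they start in the 1.93 Mb of chromosome 7 that begin at 66870001 on mm9, together with the candidate intervals U80893 and DOKist4 from the study's list of candidate loci. This gave 12 entries, of which 10 were among the 128 entries of the catalog and 2 were candidate intervals. From Ipw toward higher coordinates the entries were Ipw, MBII-85, a long and a short entry named Pwcr1, PX00113D24, MBII-13, Snrpn, Snurf, U80893, Pec3, DOKist4 and Pec2. The catalog marks 9 of its 10 entries as expressed from the paternal chromosome and gives no allele for the long Pwcr1 entry.

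PolyA+ RNA of whole brain at E17.5, a late embryonic day, was sequenced from F1 hybrids of both reciprocal crosses. The BxC library came from a C57BL/6J mother and a CastEi/J father, and the CxB library from a CastEi/J mother and a C57BL/6J father. Both were untreated, and there was 1 library per cross, so no comparison between them has a replicate check and every interval given here covers counting error only. The study dissected a single male CxB brain and BxC brains of both sexes, and each library came from 1 brain without pooling, and which BxC brain this one was is not given in the sources used here. A transcript of the paternal chromosome is of CastEi/J sequence in BxC and of C57BL/6J sequence in CxB, so that strain, cross, brain and library cannot be told apart.

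The reads were 36 bases long. The BxC library held 128944754 uniquely aligned reads and the CxB library 109719746, of which 95724 and 78888 started in the region. A count of 0 allows up to 0.0233 reads per 1000000 (RPM) in BxC and 0.0273 RPM in CxB. Markers of brain were present in both libraries. Tubb3, a neuronal tubulin, was the highest, at 974 reads per kb of exon and 1000000 reads (RPKM) in BxC and 840 RPKM in CxB. The lowest of the 6 neuronal markers stood at 16.4 RPKM in BxC and 16.9 RPKM in CxB. The 4 markers of neural progenitors lay between 3.44 and 152 RPKM in BxC and between 3.25 and 160 RPKM in CxB. The 8 markers of liver, muscle, skin and pancreas stayed between 0 and 0.85 RPKM in BxC and between 0.0131 and 1.3 RPKM in CxB, and Alb, the albumin of liver, had 0 reads in BxC and 45 in CxB. Of these 8, Krt5 had 5 and 44 reads, Ins2 6 and 26, and Apoa1 42 and 75. Myl1 had 61 and 50 reads, Krt14 65 and 58, and Afp 3 and 3, so not all of the 8 were higher in CxB. Ckm, the only one with 100 or more reads in both, stood at 0.85 and 1.3 RPKM, a log2 ratio of 0.61 that is past 1.5-fold toward CxB. Blood and choroid plexus were present in both, with Hbb-b1, a globin, at 187 and 153 RPKM and Ttr, the transthyretin of the choroid plexus, at 253 and 281 RPKM. Their part in the values of the region was not tested.

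Imprinted genes are expressed mainly from the chromosome of one parent. Snrpn encodes SmN, a protein of the spliceosome's Sm core that is abundant in brain, and its first exons encode Snurf, a small protein made from the same transcript. Downstream of Snrpn, long noncoding host transcripts run through tandem copies of box C/D snoRNAs, small RNAs that guide the 2′-O-methylation of other RNAs and that are cut from introns. Box C/D snoRNAs have no polyA tail, so a polyA+ library measures the spliced host exons and unspliced host RNA rather than the snoRNAs. Loss of the paternal SNORD116 genes is associated with Prader-Willi syndrome in humans.

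The snoRNA genes of the region differ in how well a 36-base read can be placed in them, and their sequences are shown because most copies are identical. The annotation holds 27 copies of SNORD116 from 66928831 to 67068008 of chromosome 7, and the catalog lists 1 of them as MBII-85. These 27 copies have only 10 distinct sequences, and 19 of them hold the MBII-85 sequence without a difference. The copy nearest to Snrpn differs from the others in length and is unique in the genome. Further along, MBII-13 lies within the single-copy gene Snord64, and SNORD107 is also annotated once. They are printed 5′ to 3′ from the minus strand of mm9, with box C (TGATGA, first match) and box D (CTGA, last match) in capitals. Both boxes were found in all 27 copies of SNORD116.
MBII-85, chr7:66931360-66931449: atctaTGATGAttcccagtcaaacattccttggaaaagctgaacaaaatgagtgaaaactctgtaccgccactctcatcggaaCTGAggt
SNORD116 copy nearest to Snrpn, chr7:67067920-67068008: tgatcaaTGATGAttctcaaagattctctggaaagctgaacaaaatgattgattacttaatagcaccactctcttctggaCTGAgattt
Snord64, chr7:67123694-67123760: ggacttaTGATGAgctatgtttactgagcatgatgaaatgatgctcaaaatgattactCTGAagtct
SNORD107, chr7:67125762-67125831: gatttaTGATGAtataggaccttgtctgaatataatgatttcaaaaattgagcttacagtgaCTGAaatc

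Reads over the snoRNA copies themselves were almost absent. MBII-85 had 0 reads in either library. MBII-13 had 2 reads in BxC and 1 in CxB. Over all 27 SNORD116 copies 10 reads overlapped in each library, of which 8 in BxC and 6 in CxB overlapped the copy nearest to Snrpn. Only 14.9% of the starts whose read would overlap a copy gave a 36-mer that occurs once in the genome, so most copies could receive almost no uniquely aligned read. Corrected for this, the copies had 19.3 reads per 1000 unique starts in both libraries, and the sequence between copies had 43.6 in BxC and 78.3 in CxB. The copy nearest to Snrpn has 124 of the 518 unique starts but most of the reads, so the pooled value does not stand for each copy. The ratio of copies to the sequence between them was 0.36 in BxC (95% interval of the copies' count, 0.173 to 0.662) and 0.201 in CxB (0.0962 to 0.369) when each start was counted. With reads wholly inside a copy, of which there were 1 in BxC and 4 in CxB, the ratio was 0.0788 and 0.176. Of the single-copy genes, Snord64 had 3 and 1 reads and SNORD107 had 0 and 5, against the 8 and 6 of the SNORD116 copy nearest to Snrpn, whose starts are also all unique. Of the 32 snoRNA genes annotated in the region, none had 10 reads in both libraries and 25 had no read in either.

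The copies lie a median of 2530.5 bases apart, and an assembly gap of 50 kb, from 66952206 to 67002205, interrupts the array. Host RNA of the array is therefore seen in a few places only. The long Pwcr1 entry, which spans 90.6 kb of the array as 1 block on the plus strand, offers unique starts at 4.5% of its bases. These bases include the whole assembly gap of 50 kb. It held 119 reads in BxC and 389 in CxB. In its 10 kb from 66940001, where 2.34% of the starts are unique, there was 1 read in BxC and 95 in CxB, the latter at 40 distinct positions. The short Pwcr1 entry, with unique starts at 0.914% of its bases, held 20 and 15 reads. In the sequence between the SNORD116 copies, 692 reads started in BxC and 1242 in CxB.

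Snrpn and Snurf were the most abundant entries. The exons of Snrpn in the catalog held 43869 reads in BxC and 35876 in CxB, or 261 and 251 RPKM. Snurf, whose 4 exons are shared with Snrpn, held 35442 and 28185 reads, or 586 and 548 RPKM. With the exons of the annotation, Snrpn stood at 156 RPKM in BxC and 150 RPKM in CxB, and 140 genes had a higher RPKM in each library. The 3 annotated genes outside the region nearest to Snrpn in these 2 levels were Thra, a thyroid hormone receptor, at 155.5 and 147 RPKM, Clstn1, a calsyntenin, at 161 and 149 RPKM, and Cplx2, a complexin of synapses, at 156 and 146 RPKM. Their distances on the log2 scale were 0.0293, 0.0407 and 0.0413 over 2 libraries.

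Host exons had far lower levels. Ipw, a noncoding transcript downstream of the SNORD116 array, held 382 reads in BxC and 620 in CxB over its 5 exons, or 4.14 and 7.90 RPKM. PX00113D24, a spliced entry between the array and Snrpn, held 451 and 378 reads, or 1.60 and 1.57 RPKM. Upstream of Snrpn, Pec3 held 2752 and 3860 reads, or 10.9 and 17.9 RPKM, and Pec2 held 250 and 277 reads, or 6.66 and 8.68 RPKM. The candidate U80893 held 200 reads in BxC and 231 in CxB over 5.25 kb. DOKist4, a 222 kb candidate, held 4537 and 4055 reads, or 0.158 and 0.166 RPKM over its whole length. A count of 100 or more in both libraries was reached by 9 of the 12 entries, against 41.3% of all annotated genes. The 3 entries below this were MBII-85, MBII-13 and the short Pwcr1 entry.

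**Figure D1:**
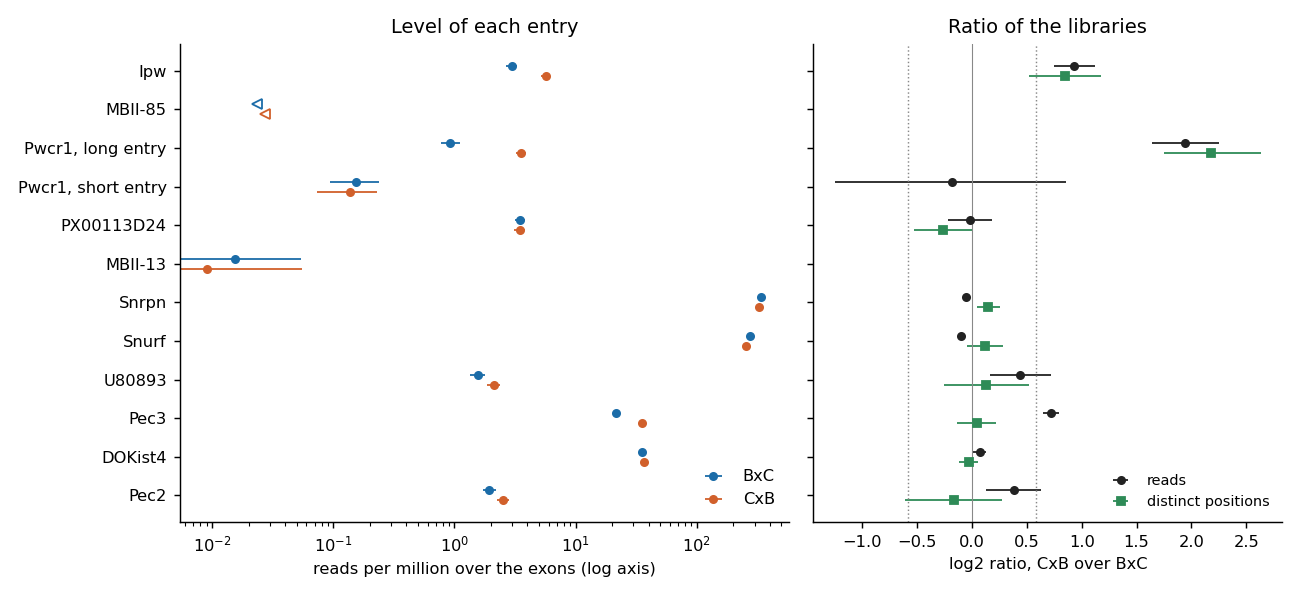
RPM over the exons of each of the 12 entries (left, log axis; bars are exact 95% Poisson intervals and open triangles are the limit that a count of 0 allows) and the log2 ratio of CxB over BxC (right; black, reads; green, distinct positions; bars are 95% intervals and dotted lines mark 1.5-fold). Snrpn and Snurf lie highest in both libraries, at 257 RPM or more, and Ipw and the long Pwcr1 entry lie to the right of the dotted line by both measures.

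Between the reciprocal crosses, Snrpn and Snurf were close to each other, and Ipw and the long Pwcr1 entry were higher in CxB. The log2 ratio of CxB over BxC, after scaling by all reads, was -0.06 for Snrpn (95% interval -0.08 to -0.04) and -0.10 for Snurf (-0.12 to -0.08). For Ipw it was 0.93 (0.75 to 1.12), a 1.91-fold difference, and for the long Pwcr1 entry 1.94 (1.64 to 2.25), a 3.84-fold difference. For Pec3 it was 0.72 (0.65 to 0.79). The values for Pec2 (0.38), U80893 (0.44), DOKist4 (0.07) and PX00113D24 (-0.02) were below 1.5-fold. In all, 3 of these 9 entries were at least 1.5-fold higher in CxB and 0 were that much higher in BxC. Among the 15427 annotated genes with as many reads, 0.473% were at least 1.5-fold higher in CxB and 0.622% in BxC, and the median log2 ratio was 0.00. Genes expressed from both chromosomes hold the alleles of both strains in both libraries, whereas a paternally expressed entry changes strain between them. This background is therefore not like for like. The median over the 9 entries was 0.38.

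The reads pile up on few positions, and this bears on Pec3. Pec3 held 549 distinct positions in BxC and 485 in CxB, where a distinct position is a start, end and strand that at least 1 read has, and 1 position carried 162 and 229 of its reads. By distinct positions its log2 ratio was 0.04 (-0.14 to 0.22), so the difference in reads lay in the number of reads per position, 5.01 in BxC and 7.96 in CxB. The share of its reads on the plus strand was 77.1% in BxC and 90.9% in CxB. With reads of the entry's own strand only, the log2 ratio was -0.60 (-0.79 to -0.41). Read strand scarcely followed the strand of genes in these libraries, so an own-strand subset is not a measure of the minus-strand transcript. Ipw kept a ratio of 0.85 (0.52 to 1.18) by distinct positions, with 129 positions in BxC and 199 in CxB. In the own-strand subset it stood at 0.54 (0.23 to 0.85). The long Pwcr1 entry had a ratio of 2.18 (1.75 to 2.64) by distinct positions, with 55 and 214. Snrpn held 28.0 reads per distinct position in BxC and 24.1 in CxB, so that its positions were filled many times over and their number says little about its level.

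Along the region, reads lay in a few peaks, with low counts in most other bins. Of 193 bins of 10 kb, the same 5 bins were fullest in both libraries and held 62.4% of the region's reads in BxC and 60.9% in CxB. With repeated reads at a position counted once per line of the files, the 5 fullest bins held 37.9% and 35.4%. The bin at 67140001 to 67150000, with the first exons of Snrpn, held 32277 reads in BxC and 23645 in CxB. The next bins downstream, with the rest of Snrpn, held 9336 and 9636 reads (from 67130001) and 7838 and 6033 (from 67120001). The bin from 67070001, just past the last SNORD116 copy and without an entry, held 6703 and 3642 reads, none of them spliced. The bin from 68150001, with Pec3, held 3583 and 5066 reads. The median bin outside the assembly gap held 73 reads in BxC and 49 in CxB, and 53 bins had 100 or more reads in both. No read was found in 10 bins in BxC and in 13 in CxB, of which 4 are wholly assembly gap, and the bins from 68470001 and 68480001 had none in either library although 85.7% and 98.5% of their starts are unique.

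**Figure D2:**
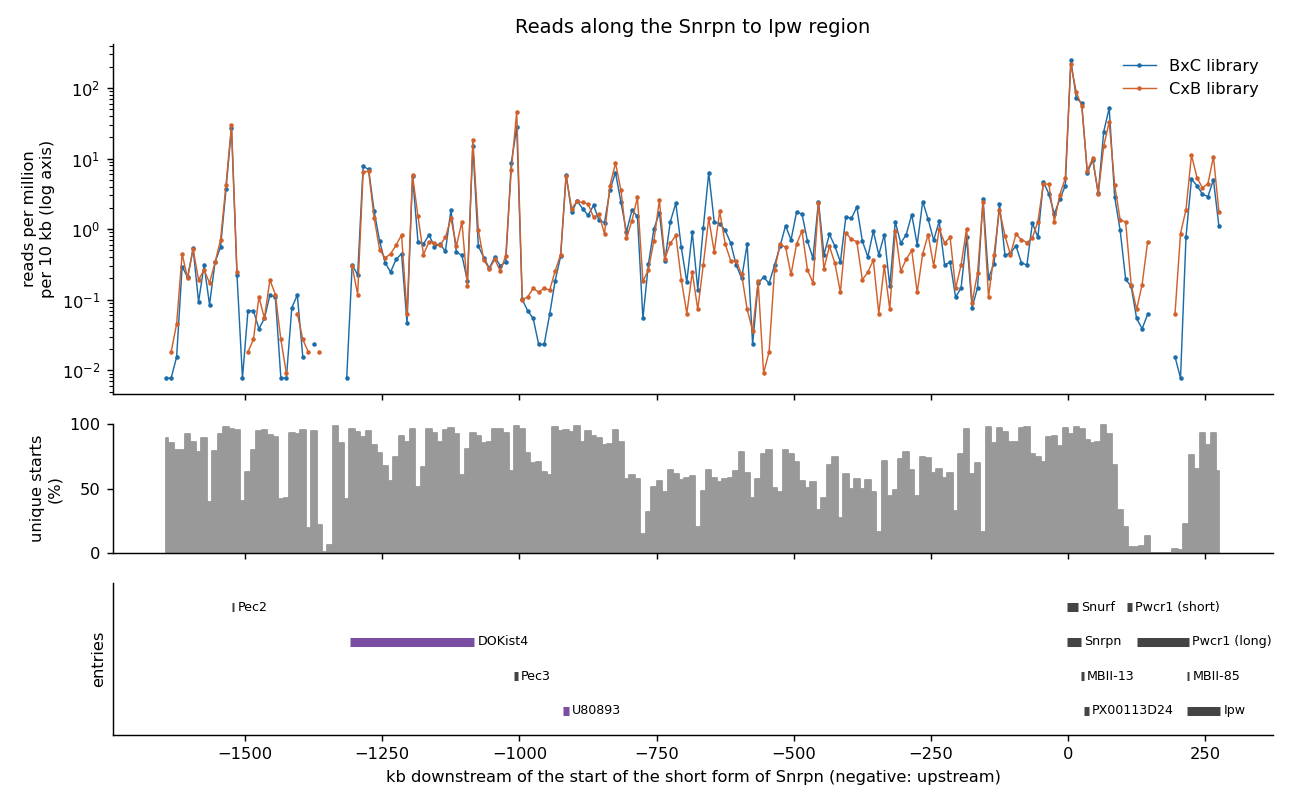
RPM per 10 kb along the region (top, log axis; BxC in blue, CxB in orange; bins with no read are left out), the percentage of starts whose 36-mer occurs once in the genome (middle) and the 12 entries (bottom; candidates in purple), against the distance in kb downstream of the start of the short form of Snrpn. The 5 fullest bins hold 62.4% of the reads in BxC and 60.9% in CxB (37.9% and 35.4% with each line counted once), and unique starts nearly vanish over the SNORD116 array and its assembly gap.

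The ratio of the libraries changed from stretch to stretch of the same host region. From the start of Ipw to the first SNORD116 copy, 2630 reads started in BxC and 3920 in CxB, a log2 ratio of 0.81 (0.74 to 0.88). Over the SNORD116 array the counts were 695 and 1251, a ratio of 1.08 (0.95 to 1.22). Between the array and Snrpn the ratio of the summed reads had the opposite sign, with 14753 and 9222 reads and a ratio of -0.45 (-0.48 to -0.41). Most of these reads lay in the 10 kb bins from 67070001 and 67080001, which hold no entry and had ratios of -0.647 and -0.682. The bins from 67090001, 67100001 and 67110001 had ratios of -0.028, 0.083 and 0.095, so the stretch did not change direction as a whole. Over the short form of Snrpn, with 47037 and 37655 reads, the ratio was -0.09 (-0.11 to -0.07). In each of these stretches except Snrpn the ratio by distinct positions had the same sign and an interval that left out 0, at 0.58, 1.14 and -0.29. For Snrpn, with many reads at each position, it was -0.03 (-0.11 to 0.06).

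Further upstream, from the long form of Snrpn to U80893, 11763 reads in BxC and 7721 in CxB started, a ratio of -0.37 (-0.42 to -0.33). BxC was higher in 5 neighbouring windows of 100 kb within it, from 67370001 to 67870000. The first of these windows held 1431 reads in BxC and 597 in CxB, the second 1131 and 399, the third 1364 and 691, the fourth 415 and 234, and the last 1915 and 659. Their log2 ratios lay between -0.59 and -1.31. Of the 17 whole 100 kb windows of the region with 100 or more reads in both libraries, 5 were at least 1.5-fold higher in BxC and 2 in CxB, against 0.346% and 0.66% of such windows in the genome. The 2 windows higher in CxB were the Ipw end of the region, with ratios of 0.86 and 0.87. By 10 kb bins, 7 of 53 were higher in CxB and 4 in BxC, or 13.2% and 7.55%, where the genome had 2.09% and 0.844%. Many bins of the windows higher in BxC had fewer than 100 reads in CxB and were not counted. Examples are those from 67410001, with 318 and 49 reads, and 67860001, with 300 and 90. The bin from 67040001, with 25 and 138, was left out on the other side. The 2 counts of bins therefore do not give the balance of directions over the region. As for the annotated genes, the genome is not a like-for-like background for paternally expressed stretches. The largest difference toward BxC among the 53 bins was in the bin from 67800001, with 811 reads in BxC and 156 in CxB.

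The splice signals at the joins of spliced reads gave a direction, which the strand of the reads did not. In the region 6078 spliced reads joined 57 pairs of positions in BxC, and 4991 joined 57 in CxB. With 2 or more reads in both libraries there were 38 junctions. Of these, 36 had GT-AG splice signals on the minus strand, 0 had them on the plus strand and 2 had neither. The 2 without were a join of 220 bases from 67600373, with 132 and 108 reads, and a join inside Pec3 from 68156176, with 8 and 4 reads. An annotated intron matched 14 of the 38 junctions, an intron of a catalog entry 13, and 20 matched neither. Reads were aligned to junctions of gene models that the authors supplied, so a join outside those models could not be found. The direction counted here is therefore that of the supplied models that had reads.

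The files give each read a strand, and the protocol in the study's methods was strand-specific, but reads over annotated genes fell on the gene's strand for a median of only 44.0% in BxC and 43.3% in CxB. In the region 59.4% of the reads in BxC (59.1 to 59.7) and 59.2% in CxB (58.8 to 59.5) were on the plus strand. All joins with splice signals, which come from the supplied gene models, were on the minus strand. At the 9 junctions of the short form of Snrpn the plus-strand share ran from 10.4% to 85.6% in BxC and from 9.59% to 87.3% in CxB. Strand was therefore not used to assign reads, and reads of overlapping transcripts on opposite strands cannot be told apart.

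Within Snrpn, the first 4 exons, those of the Snurf entry, were covered far more deeply than the later ones. Exon 1 stood at 893 RPKM in BxC and 810 RPKM in CxB, and exon 2 at 873 and 852 RPKM. Exons 3 and 4 stood at 428 and 315 RPKM in BxC and at 324 and 370 RPKM in CxB. From exon 5 to exon 9 the levels lay between 44.6 and 153 RPKM in BxC and between 66.5 and 149.5 RPKM in CxB. Exon 10, the longest, was at 28.7 and 26.9 RPKM over its annotated length. The annotation runs this exon to 67127388, whereas the catalog ends it at 67128002. The 1970 annotated exon bases held 44044 and 35992 reads, and the catalog's 1304 held 43869 and 35876. Most of the extra bases lie in exon 10 and held few reads, so its RPKM is low largely through its annotated length. Exon 6 was the most different between libraries, with 644 reads in BxC and 1101 in CxB and a log2 ratio of 1.01 (0.87 to 1.15). Its distinct positions numbered 119 and 162. Introns of this form held 2994 and 1664 reads, or 145 and 80.4 per kb, against 22360 and 18270 per kb for its exons. These values are not scaled by library size, and the introns were lower in CxB by more than the exons were.

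The junctions of Snrpn varied in reads, and they also varied in how many of their joined sequences occur once. The junction of exons 1 and 2 had 2816 reads in BxC and 2142 in CxB, whereas that of exons 2 and 3 had 6 and 4. A read with at least 5 bases on each side can carry 27 joined 36-mers, and for exons 1 and 2 all 27 are absent from the genome as an unbroken sequence, while for exons 2 and 3 only 1 of 27 is. At 7 of the 9 junctions of Snrpn, some of the joined 36-mers lie unbroken on chromosome 14, within 63159446 to 63160340 (mm9), a stretch of 895 bases without an annotated gene. The junction of exons 8 and 9, with 7 of 27 absent from the genome, had 128 and 95 reads, and that of exons 9 and 10, with 26 of 27, had 874 and 748. The junctions in between did not order this way. With 20 to 22 of 27 absent, the introns 3 to 7 ranged from 122 to 615 reads in BxC and from 102 to 615 in CxB. Among them intron 3 had 615 and 615 reads, whereas intron 4 had 130 and 145 and intron 6 had 122 and 102, close to the counts of intron 8. The search was for exact matches, so inexact copies that the aligner could also report were not counted, and the part of these copies in the read counts was not tested.

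**Figure D3:**
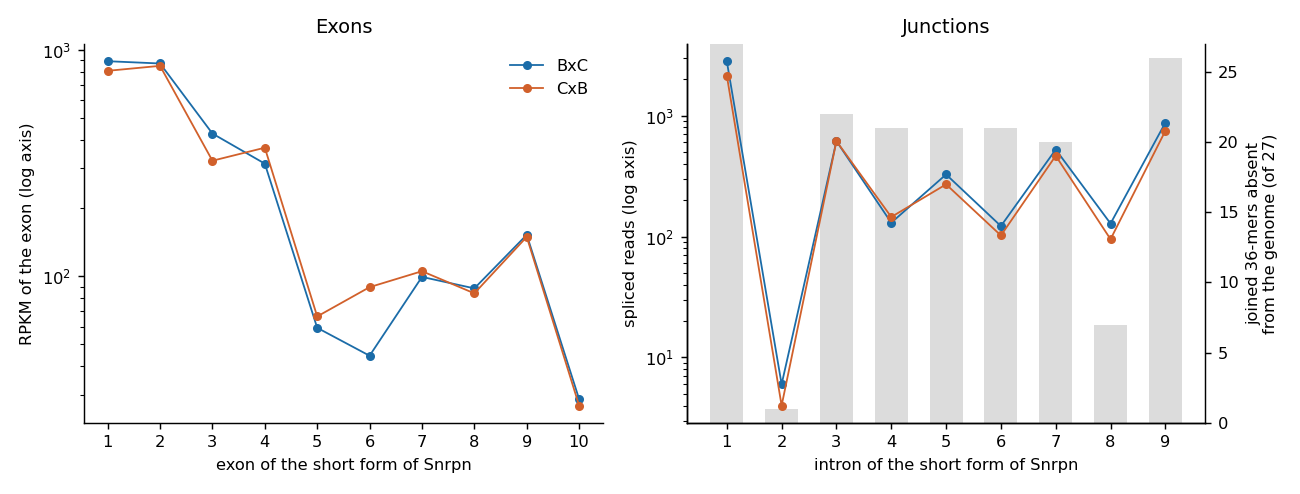
Level of each exon of the short form of Snrpn in RPKM (left, log axis) and reads over each of its junctions (right, log axis; lines) with the number of the 27 joined 36-mers that are absent from the genome (grey bars, linear axis at the right), in BxC (blue) and CxB (orange). Exons 1 and 2 lie between 810 and 893 RPKM, and the junction at intron 2, with 1 such 36-mer, has 6 and 4 reads.

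Exon 2 of Snrpn was also joined to exons far upstream of the short form. The following lines give the 36 bases that identify each join, with the last 18 bases of the upstream exon in capitals and the first 18 bases of exon 2 in lower case, on the minus strand of mm9. Each is named by the lowest coordinate of its upstream exon, and all have GT-AG signals.
Exon 1 of the short form (from 67149922): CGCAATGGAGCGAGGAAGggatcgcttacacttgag
Upstream exon from 67216771: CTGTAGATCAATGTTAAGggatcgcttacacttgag
Upstream exon from 67277136: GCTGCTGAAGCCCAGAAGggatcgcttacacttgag
Upstream exon from 67402571: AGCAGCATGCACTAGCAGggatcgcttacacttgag

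Of the 2875 reads that joined exon 2 to an exon before it in BxC, 59 came from the upstream exons, or 2.05% (Clopper-Pearson 95% interval 1.57 to 2.64). In CxB they were 42 of 2184, or 1.92% (1.39 to 2.59) with overlapping intervals. The exon at 67216771, 72.5 kb from exon 2, gave 50 reads in BxC and 23 in CxB. The exon at 67277136, which is exon 2 of the long annotated form, gave 3 and 12. The exon at 67402571, 258 kb away, gave 6 and 7. By distinct positions the upstream exons held 19 of 68 in BxC, or 27.9%, and 15 of 65 in CxB, or 23.1%. The 2816 and 2142 reads of the short-form join lay at only 49 and 50 positions, close to all that 27 joined 36-mers on both strands allow, so the share by positions has a ceiling that the share by reads does not.

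The upstream exons were also joined to each other. In BxC 22 reads and in CxB 12 reads joined exons 1 and 2 of the long annotated form, and 13 and 2 reads joined the exons at 67216771 and 67277136. The exon at 67402571 was joined to one 144 kb further upstream by 3 reads in BxC and 1 in CxB. From there 9 and 0 reads ran directly, and 3 and 2 reads by way of one more exon on the way, across introns that end at 67594963. The exon past them lies at the farthest Snrpn start in RefSeq, at 67595063, which is 451 kb from exon 2. No junction in either library joined this chain to U80893, Pec3 or DOKist4, which lie further upstream. A join outside the supplied gene models could not be found, so this absence does not show that none was made.

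**Figure D4:**
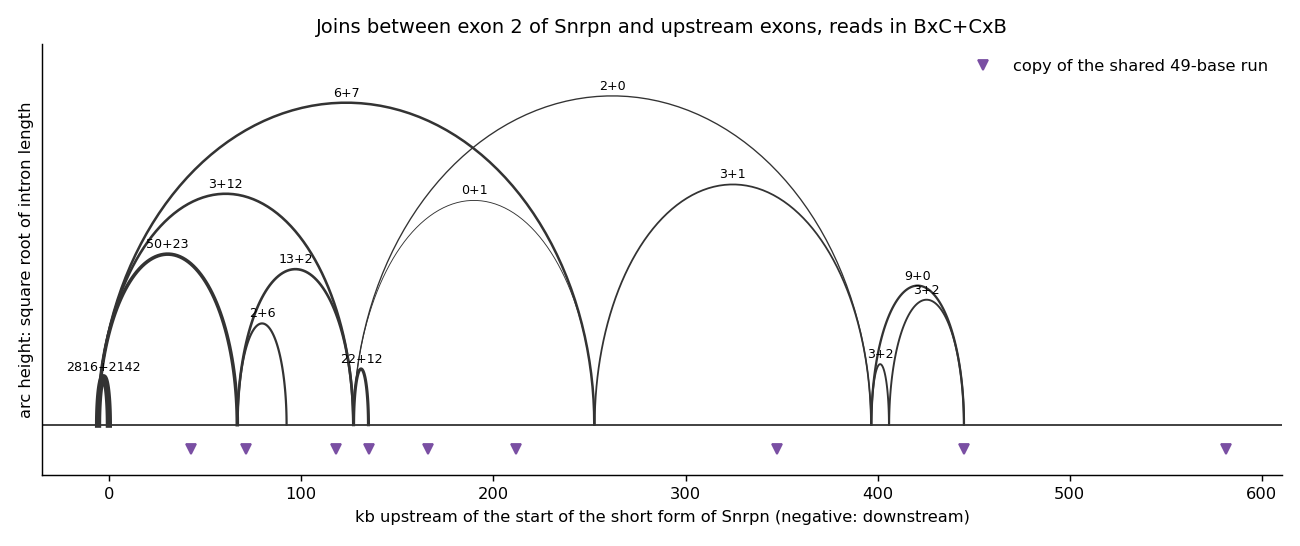
Joins between exon 2 of Snrpn and exons upstream of it, and among those exons, drawn as arcs against the distance in kb upstream of the start of the short form, with the reads in BxC and CxB beside each arc (BxC+CxB; arc height is the square root of the intron length, and line width rises with the logarithm of the reads). The purple marks are the 9 copies of a shared 49-base run, and the farthest arcs end at the copy near the farthest RefSeq start.

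RefSeq lists 4 starts of Snrpn with 300-base promoter sequences (250 bases before the start and 50 after, from GRCm38.p6), and all 4 matched mm9 exactly by sequence. In the first 120 bases after the start of the short form, at 67150085, 10542 reads were found in BxC and 8181 in CxB. The start at 67192864 had 468 and 390 reads, the start at 67285111 had 22 and 35, and the farthest had 12 and 13. In BxC all 22 and all 12 of these were spliced, and so are among the junction reads given above. In CxB 12 of 35 and 2 of 13 were spliced. The first 50 bases alone held 10 and 17 reads for the short form and 463 and 389 at 67192864. They held 0 and 23 at 67285111 and 0 and 6 at the farthest start. Unique starts covered 100%, 82.5%, 46.7% and 35% of these windows in the same order. The start at 67192864 had the most reads among the upstream ones, with 57 and 52 distinct positions. No junction joined it to exon 2, but such a join could be seen only if the supplied gene models held it.

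These promoters were compared because the upstream starts share a sequence that the short form lacks. The promoter of the short form, chr7:67150036-67150335 on mm9, and that of the farthest start, chr7:67595014-67595313, are given 5′ to 3′ from the minus strand with CG dinucleotides in capitals.
Short form: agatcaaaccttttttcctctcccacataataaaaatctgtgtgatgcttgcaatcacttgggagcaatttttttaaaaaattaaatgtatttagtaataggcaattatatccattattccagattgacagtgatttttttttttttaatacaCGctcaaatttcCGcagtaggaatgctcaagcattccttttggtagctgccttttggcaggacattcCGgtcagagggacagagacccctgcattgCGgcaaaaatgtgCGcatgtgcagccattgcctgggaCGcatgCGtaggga
Farthest start: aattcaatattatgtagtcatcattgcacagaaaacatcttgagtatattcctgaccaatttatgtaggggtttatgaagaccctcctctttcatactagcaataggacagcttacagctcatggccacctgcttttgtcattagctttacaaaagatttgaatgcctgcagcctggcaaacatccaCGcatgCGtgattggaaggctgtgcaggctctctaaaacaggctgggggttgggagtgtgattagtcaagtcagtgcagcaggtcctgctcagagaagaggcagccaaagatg

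The promoter of the short form holds 7 CG dinucleotides, a number that 52.1% of the 32851 promoters of this length in RefSeq reach, and the farthest holds 2, reached by 85.9%. The 3 upstream promoters have a run of 49 bases in common, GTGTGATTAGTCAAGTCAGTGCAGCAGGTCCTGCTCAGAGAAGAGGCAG, which 4 of the 32851 promoters hold without a difference (0.0122%; as written, one strand). The run was taken from these 3 promoters, which are among the 4, so this share is largely set by how the run was chosen. Searched on both strands of chromosome 7 with at most 5 mismatches, the run was found at 9 places, all of them in the region and all on the minus strand, and 5 of the 9 had no mismatch. The copies lie from 67192834 to 67731402. After the first copy, at 67192834, 469 and 390 reads were found within 120 bases from its first base. After the others the counts were between 0 and 50 in BxC and between 1 and 65 in CxB. The copies at 67497581 and 67731354 had 40 and 50 reads in BxC and 1 and 1 in CxB. The copy at 67361713 had 26 in BxC and 65 in CxB.

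Downstream of Snrpn, joins of the host transcripts were few. Ipw had reads over 3 of the 4 introns that the catalog gives it. Its widest intron, of 48.6 kb, was spanned by 4 reads in BxC and 3 in CxB, and the intron from 66923362 by 17 and 8. From the same Ipw exon (intron start 66925113) the join differed between libraries: 6 reads in BxC and 0 in CxB went to 66931707 (end of the intron), and 0 and 7 went to 66929179. Both sites lie in the SNORD116 array, where 36-mers repeat. For each of these joins, all 27 joined 36-mers are absent from the genome as an unbroken sequence. Other possible joins of the same sequence were not searched. Between the array and Snrpn the strongest join, from 67091527 to 67100530, had 51 reads in BxC and 29 in CxB. Both introns of PX00113D24 had reads, with 3 and 4 over the first in transcript order and 9 and 2 over the second. No join linked the host exons past the array to an exon of Snrpn, but joins between separate gene models could not be found.

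The candidates and the Pec entries lie far upstream of Snrpn, and the candidates were spliced on the minus strand too. U80893 (chr7:68062617-68067865) held 1 junction, an intron of 4.22 kb with 4 reads in BxC and 6 in CxB, and a further junction beginning just beyond it, at 68068175, spanned 37.9 kb with 9 and 15 reads. DOKist4 (chr7:68234453-68456607) held 20 junctions in all, of which 9 had 2 or more reads in both libraries and 4 were introns of the annotation. Its strongest, from 68322417 to 68339872, had 35 and 13 reads. The annotation gives 2 genes named A230006K03Rik inside DOKist4. The protein-coding one, at the lower coordinates, held 614 and 830 reads over its exons, or 2.07 and 3.29 RPKM. By reads it was past 1.5-fold toward CxB, unlike DOKist4 as a whole, and its reads lay at 303 and 291 distinct positions. The processed transcript held 401 and 322 reads, or 3.45 and 3.26 RPKM. Past Pec2, a junction from 68675547 had 36 and 52 reads. The other annotated genes with 10 or more reads in both libraries were Gm7367, with 284 and 194 reads, and the pseudogene Gm10297, with 58 and 61.

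The study assayed U80893 and DOKist4 by pyrosequencing, which reads a short stretch next to a primer, and the sequencing primers place these assays on the transcripts. The paper reports that its assay bore out a parent-of-origin bias of U80893, and that an earlier study had done so for DOKist4. The paper's own traces of DOKist4 were also strongly biased in opposite directions in the reciprocal crosses, relative to genomic DNA. The word candidate here names only the list that they came from. Both primers match the minus strand of mm9, the direction of the junctions.
U80893 primer, chr7:68063047-68063064: ctacagaagctgatcacc
DOKist4 primer, chr7:68431712-68431726: ttgcctcccctcatt
The assayed base of DOKist4, at 68431711, directly follows its primer and was covered by 29 reads in BxC and 27 in CxB, from 11 and 13 distinct positions. The assayed base of U80893, at 68063044, lies 3 bases from its primer. It was covered by as few as 2 reads in each library.

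Genes that work with the products of the region were compared to describe their own spread between these libraries. Those expressed from both chromosomes do not change strain between the libraries, unlike the paternally expressed entries. Of the 7 other genes of the core Sm ring, the protein complex that SmN joins, 0 were past 1.5-fold, and their median log2 ratio was -0.16. Snrpb, the paralog of Snrpn that encodes SmB, was at 42.2 RPKM in BxC and 42.5 RPKM in CxB. Of the 4 protein genes of box C/D snoRNPs (Fbl, Nop56, Nop58 and Nhp2l1) 0 were past 1.5-fold, with a median of -0.13, and the same held for the 7 of 9 other snoRNA host genes found in the annotation, with a median of -0.14. Rian, the imprinted host of another tandem snoRNA cluster, had 28502 reads in BxC and 27318 in CxB, a log2 ratio of 0.17 (0.15 to 0.20). Of the 4 neighbouring genes of the same imprinted domain 0 were past 1.5-fold. Among the 15427 annotated genes with enough reads to be compared, only 0.473% were past 1.5-fold toward CxB and 0.622% toward BxC. Lists this short would mostly hold 0 such genes whatever their members, so these counts do not set the lists apart. Ube3a, the ubiquitin ligase gene, stood at 11.2 and 10.3 RPKM, Ndn, which encodes necdin, at 206 and 145 RPKM, Magel2 at 8.75 and 7.47 RPKM, and Mkrn3 at 4.66 and 5.63 RPKM.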

How the data were processed

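Whole-brain polyA+ RNA was sequenced as 36-base single reads, 1 library per cross. The authors aligned the reads with Novoalign (version not given in the sources used here) to mm9, gene models and junctions of those models, and deposited uniquely aligned reads as positions with counts of reads. Masking of known strain differences is stated for another alignment of the study and is not given for this one in the sources used here. The deposited count of a line is the number of consecutive reads with the same position and strand: at all 7777579 (BxC) and 6237892 (CxB) places where neighbouring lines shared a position, the strand changed. Lines were therefore merged into distinct positions, an alternative added after the data were seen. The members and gene lists were chosen with earlier results of these data known.

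A read was counted where an aligned block overlapped an exon, on both strands. Levels are RPM or RPKM. Counts have exact 95% Poisson intervals, shares Clopper-Pearson intervals and ratios exact conditional binomial intervals. With 1 library per cross, no test was made. A call means at least 1.5-fold with 100 or more reads in both libraries. Genes came from Gencode vM1 and sequences from NCBIM37 (the build of mm9) and RefSeq, and 36-mers were counted over the whole genome. All entries and candidates of the region are named, as are annotated genes with 10 or more reads in both libraries, the 5 fullest bins, the strongest junctions, the fixed lists and the 3 genes nearest to Snrpn. Python 3.11.15, numpy 2.4.6, pandas 2.3.3, scipy 1.17.1 and numba 0.67.0 were used, and the counting was tested on simulated data. Paired analysis was not possible with 1 library per cross.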

Additional observations from a re-analysis of the deposited data

How the results depend on the processing

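The number of entries with 100 or more reads in both was 9 and lay between 7 and 9 under all alternatives tried. The 3 entries at least 1.5-fold higher in CxB stayed at 3 with reads of chromosome X and the mitochondrial chromosome left out of the scale, with the median ratio of annotated genes as the scale, and with a minimum of 10 reads. They fell to 1 with every line counted once and to 1 by distinct positions, where the long Pwcr1 entry fell under the minimum and only Ipw was called, and to 0 with the strand of the entry only, where the long Pwcr1 entry was under the minimum, Ipw stood at 0.54 and 1 entry, Pec3, was higher in BxC. Of 38 other values of single entries not fixed to repeat the reported one, 22 stayed within its interval. Most of these 22 came from the changes of scale, which shift every entry by the same small amount and could hardly leave the interval. With lines counted once, the entry's own strand or distinct positions, most values left the interval: 12 moved and 4 changed sign. These were Pec3 at -0.6 with its own strand, in libraries where read strand scarcely followed genes, DOKist4 at -0.031 by distinct positions, and Snrpn at 0.15 and Snurf at 0.119 by distinct positions, which for these entries carry 24.1 to 53.3 reads each and say little about the level. The share of reads in the 5 fullest bins (62.4% and 60.9%) was 56.5% in BxC and 52.3% in CxB after division by the share of unique starts, 37.9% and 35.4% with lines counted once, 55.5% and 54.1% with bins of 5 kb, and 71.9% and 69.5% with bins of 20 kb. Junctions in each library numbered 43 with at least 1 read and 22 with at least 5. The share of plus-strand reads was 53.1% and 54.1% with lines counted once. The ratio of SNORD116 copies to the sequence between them was 0.0788 in BxC, from 1 read, and 0.176 in CxB with reads wholly inside a copy. Annotated genes past 1.5-fold rose from 1.1% to 7.74% with a minimum of 10 reads. The cause was not tested except where fewer positions or another bin width set the value. No paired analysis was possible because each cross has 1 library. With 36-base unique reads, 11.7% of starts in the SNORD116 array could be measured, with the assembly gap counted among the starts.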

Other observations

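The SNORD115 array runs from 66597596 to 66874465 of chromosome 7 on mm9, and most of it lies outside the region, beyond the Ipw end, with 3 of its copies inside. Of its 137 annotated copies, 4 had reads in BxC and 16 in CxB, and 23 and 65 reads overlapped a copy. Over the whole 277 kb of this array 1162 reads started in BxC and 3497 in CxB, or 4.2 and 12.6 reads per kb. The catalog entry MBII-52, a copy of this snoRNA, had 0 reads in either library.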
